A study of Mus musculus with 8 samples.

Results

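The genes described here encode the 2 corticosteroid receptors, proteins that work on or with them, enzymes that make or reduce steroids in the brain, and a receptor of the stress axis. They are Nr3c1, Nr3c2, Hsd11b1, Fkbp4, Ncoa1, Ncoa2, Srd5a1, Akr1c14 and Crhr1, 9 of the 28732 genes in the deposited count table. They were chosen by name with the knockout against control counts of these same libraries already known, so their differences between the groups are given as descriptions and without a p-value. All 9 were found by symbol, and all 9 passed the filter on low counts that left 15564 genes.

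RNA of the cerebral cortex was sequenced from adult mice, whose age is postnatal day 90 in the labels and 12 to 14 weeks in the series text. All mice carried floxed Tak1 alleles and received tamoxifen. The knockout group (Cdh5-CreER::Tak1fl/fl) also carried CreER, a recombinase that tamoxifen switches on, under the promoter of Cdh5, a cadherin gene of the endothelial cells that line blood vessels. The control group (Tak1fl/fl) did not. There were 4 libraries in each group, named here by the numbers of the deposited columns (controls 1 to 4, knockouts 2 to 5). The design asks what deletion of the kinase TAK1 from endothelial cells does to gene expression in the adult cortex.

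Corticosterone, the main glucocorticoid of mice, binds the mineralocorticoid receptor with high and the glucocorticoid receptor with lower affinity. Both receptors are held ready for the hormone by chaperones, move to the nucleus once bound, and act there with coactivator proteins. Brain cells also adjust the steroids that reach their receptors: one enzyme regenerates corticosterone from its inactive ketone, and a pair of enzymes turns progesterone into allopregnanolone, a neurosteroid that strengthens inhibition through GABA-A receptors. Corticotropin-releasing hormone starts the pituitary arm of the stress response and also acts as a peptide transmitter within the cortex.

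Each library held 13483354 to 17728963 counts assigned to genes. Map3k7, which encodes TAK1, stood at 36.2 to 42.7 CPM (counts relative to the TMM-scaled library size) in controls and 35.3 to 42.6 CPM in knockouts, and since other cells of the cortex express it and the counts cover the whole gene, this level does not check the deletion. Markers of excitatory cortical neurons were present in every library, with a summed level of 2647 to 3071 CPM over 8 genes in controls and 2729 to 4088 CPM in knockouts. Most of that sum is Camk2a (2072 CPM on average in controls and 2480 CPM in knockouts), and Neurod6 was called lower (-0.68 ± 0.14 log2). Among 5 endothelial markers Cdh5, whose promoter drives the recombinase, was called higher (0.98 ± 0.24) and Tek lower (-1.18 ± 0.21). Cdh5 in knockout 4, at 11.1 CPM, lay inside the control range of 9.28 to 11.3 CPM. The other knockouts had 16.8 to 27.4 CPM. The astrocyte markers Gjb6 (1.49 ± 0.16) and Aldh1l1 (0.60 ± 0.13) were called higher, 2 of 6, and the oligodendrocyte marker Ermn lower (-0.62 ± 0.16), 1 of 5. The summed level of 7 choroid plexus markers was 19.8 to 194 CPM in controls, with control 4 the highest. In knockouts it was 385 to 547 CPM, most of it from Ttr. Of the 7 markers 4, Ttr not among them, passed the test as higher. Over 7 thalamus markers the sum was 205 to 248 CPM in controls and 275 to 314 CPM in knockouts. Most of that sum is Rora, a broadly expressed receptor gene (128 CPM on average in controls and 176 CPM in knockouts, called higher). Shox2 was also called higher (0.0704 and 2.26 CPM), and the other thalamus markers were not called. Of these Prkcd (0.43 ± 0.19), Plekhg1 (0.41 ± 0.14) and Slc17a6 (0.16 ± 0.18) were higher in knockouts, and Tcf7l2 (-0.08 ± 0.13) and Lef1 (-0.03 ± 0.19) lower. Over 5 microglia markers the sum was 233 to 324 CPM in controls and 113 to 229.5 CPM in knockouts. Of the 80 markers in 12 lists 4 were not analysed here, and none of the other 76 was at 0 in all libraries. Knockout 4 stood apart from the other knockouts in the neuronal activity gene Arc, at 135 CPM against 16.6 to 32.7 CPM, while controls had 111 to 162 CPM. Whether these differences play a part in the values of the 9 genes was not tested.

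The promoters of the 3 genes whose knockout libraries all lay below the controls are shown to place these genes in the genome and to let their composition be compared. Each runs from 250 bases before to 50 bases after the RefSeq start (GRCm38.p6), 5′ to 3′ on the gene's strand, and capitals mark GC boxes, the letters GGGCGG on either strand. The Akr1c14 window is chr13:4059341-4059640 on the plus strand, inside the longer GENCODE gene span, that of Fkbp4 is chr6:128438607-128438906 on the minus strand, and that of Crhr1 is chr11:104132531-104132830 on the plus strand.
Akr1c14: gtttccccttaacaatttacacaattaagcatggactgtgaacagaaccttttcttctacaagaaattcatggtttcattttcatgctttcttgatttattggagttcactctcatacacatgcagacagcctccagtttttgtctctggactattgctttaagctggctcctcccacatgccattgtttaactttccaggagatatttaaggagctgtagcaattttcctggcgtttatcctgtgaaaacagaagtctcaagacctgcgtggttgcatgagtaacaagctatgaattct
Fkbp4: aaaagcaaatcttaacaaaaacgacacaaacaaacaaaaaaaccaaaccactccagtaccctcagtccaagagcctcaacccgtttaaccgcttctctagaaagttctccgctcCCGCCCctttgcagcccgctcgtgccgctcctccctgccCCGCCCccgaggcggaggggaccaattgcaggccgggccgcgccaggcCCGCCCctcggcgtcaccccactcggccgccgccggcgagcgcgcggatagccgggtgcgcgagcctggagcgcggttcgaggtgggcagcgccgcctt
Crhr1: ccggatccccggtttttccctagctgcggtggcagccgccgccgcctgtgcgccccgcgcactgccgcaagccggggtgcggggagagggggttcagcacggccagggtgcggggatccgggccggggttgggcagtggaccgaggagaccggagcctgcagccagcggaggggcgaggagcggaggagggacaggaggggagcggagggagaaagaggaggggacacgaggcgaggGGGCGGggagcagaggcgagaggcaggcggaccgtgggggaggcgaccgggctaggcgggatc

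The Akr1c14 window is poor in G and C, at 39.7%, and has no GC box. The Fkbp4 window has 65.3% G and C and 3 GC boxes, and the Crhr1 window has 75.0% and 1 GC box. Of all 32851 promoter windows in the RefSeq table, 35.7% hold at least 1 GC box. The letters AGAACA, which form one arm of the glucocorticoid response element, were searched on both strands. They occur in none of these 3 windows and, among the 7 genes with a window, only in that of Ncoa1, 38 bases after its start, against 19% of all windows. TATAAA, searched on both strands, is in none of the 7 windows and in 13.6% of all windows. These are matches of letters in short windows and say nothing of which factors bind.

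Before the comparison of the groups, the control levels give the order of the 9 genes. Between genes only levels per length can be compared, so CPM were divided by the length of all annotated exons, in kb. Fkbp4 was highest at 25.3 ± 2.89 CPM per kb (mean ± SD, n = 4 controls, as for the following), then Ncoa1 at 20.3 ± 1.55 and Nr3c1 at 18.9 ± 1.87. The ranges of Fkbp4 (21.5 to 27.8) and Ncoa1 (18.5 to 22.1) overlapped, although Fkbp4 was above Ncoa1 in 4 of 4 controls, and Ncoa1 and Nr3c1 were not separated. Ncoa2 and Nr3c2 formed a middle pair, both at 6.52 CPM per kb (SD 1.01 and 1.08), and each was above the other in 2 of 4 controls. Crhr1 followed at 2.01 ± 0.403 and Srd5a1 at 1.40 ± 0.462 CPM per kb, with overlapping ranges. Hsd11b1 (0.834 ± 0.181) and Akr1c14 (0.811 ± 0.264) were lowest and not separated. The neighbours Nr3c1 and Ncoa2, Nr3c2 and Crhr1, and Srd5a1 and Hsd11b1 had control ranges that did not overlap, although those of Srd5a1 (down to 1.09) and Hsd11b1 (up to 1.02) lay close together.

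**Figure D1:**
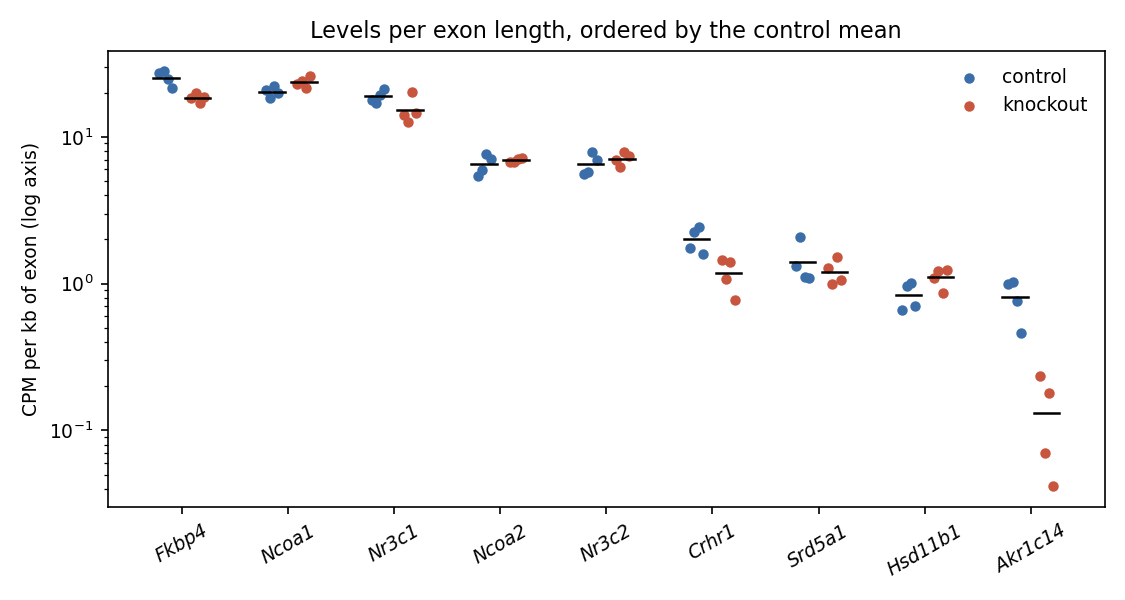
Level of each gene per kb of exon (CPM per kb, log axis) in every control and knockout library, with the group mean as a line, ordered by the control mean. Fkbp4, Ncoa1 and Nr3c1 are the highest and Akr1c14 and Hsd11b1 the lowest in controls, and Akr1c14 alone drops far below the other genes in knockouts.

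Across the 9 genes, Akr1c14 and Fkbp4 were lower in knockouts and past the threshold of edgeR's test over all genes, and none was higher. Thus 2 of 9 were called lower, while 2.99% of all genes tested were called lower and 3.44% higher. DESeq2 called 3 lower and none higher, against 5.51% lower and 6.22% higher of all genes, and limma voom called 2 and none, against 3.23% and 3.32%. At an unadjusted p under 0.05 in edgeR 4 were lower and 1 was higher, against 12.8% and 13.0% of all genes. All 4 knockouts lay below all 4 controls in 3 genes (Akr1c14, Fkbp4 and Crhr1) and above them in none, against 7.65% of all genes tested below and 8.58% above. The median log2 fold change of the 9 was -0.20, and that of all genes was -0.0021. The members were chosen with this contrast known, and these counts are not read as a property of the group. The count of genes called lower among the 9 depended on single libraries. It was 4 without knockout 4, 1 without control 1, control 3, knockout 2 or knockout 5, and 0 without control 2. In whole cortex, fewer cells of a type and less RNA per cell cannot be told apart.

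**Figure D2:**
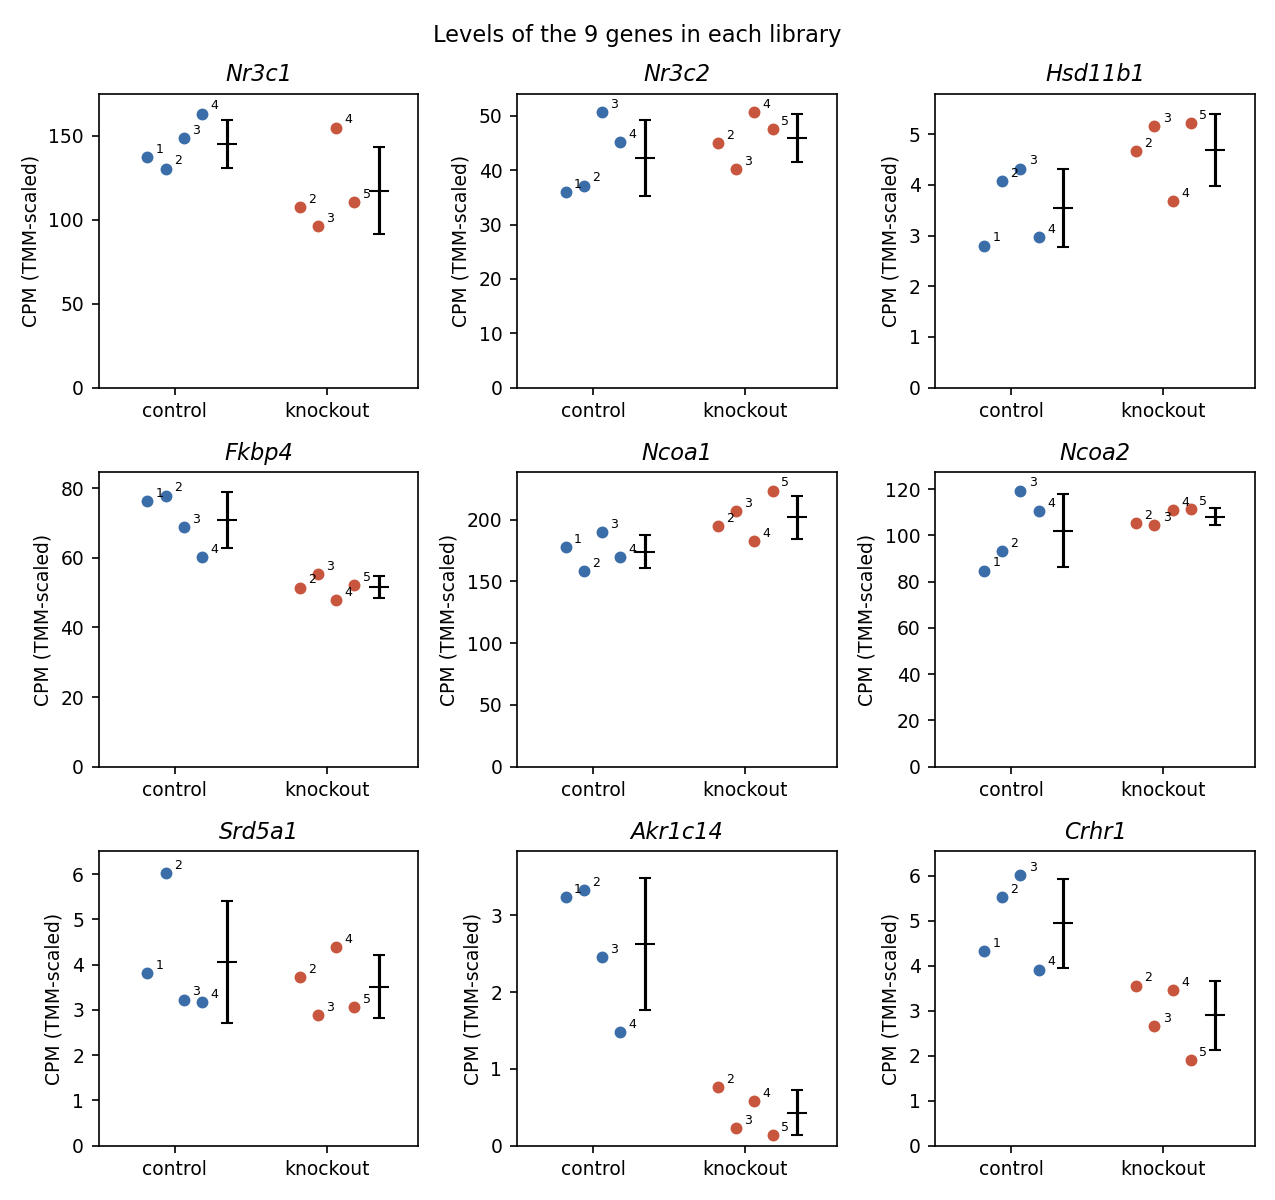
Level of each of the 9 genes (TMM-scaled CPM, linear axes from 0) in the 4 control and 4 knockout libraries, numbered as in the deposited table, with the mean and SD of each group in black. The groups are apart for Akr1c14, Fkbp4 and Crhr1, and knockout 4 lies among the controls for Nr3c1.

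The glucocorticoid receptor gene and the mineralocorticoid receptor gene showed different patterns. Nr3c1 (ENSMUSG00000024431, chromosome 18, 39410545 to 39519421, GRCm38), which encodes the glucocorticoid receptor, was at 137, 131, 149 and 163 CPM in controls 1 to 4 and at 107, 96.3, 155 and 111 CPM in knockouts 2 to 5. Knockouts 2, 3 and 5 lay below every control, and knockout 4 lay inside the control range. The means were 145 ± 14.4 and 117 ± 25.8 CPM (SD, n = 4 each), and the log2 fold change of -0.31 ± 0.14 (SE) was not called. Nr3c1 was called in 1 of 15 alternative fits, the one without knockout 4, its highest knockout, where the log2 fold change was -0.46.

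Nr3c2 (ENSMUSG00000031618, chromosome 8, 76899442 to 77245012), the mineralocorticoid receptor gene, was at 35.9, 37.2, 50.7 and 45.1 CPM in the controls and at 45.0, 40.2, 50.7 and 47.6 CPM in knockouts. Knockouts 2, 3 and 5 lay within the control range, knockout 4 lay level with the highest control, and controls 1 and 2 were the lowest libraries. The log2 fold change was 0.12 ± 0.13 and was not called. A share of 3.82% of its exon length overlaps Gm10649, a noncoding gene on the opposite strand that stood at 0.877 to 1.75 CPM over all libraries.

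The ratio of the receptors does not depend on the scaling of the libraries. Per exon length, Nr3c1 had 3.22, 2.96, 2.47 and 3.05 times the reads of Nr3c2 in controls 1 to 4. In knockouts 2 to 5 it had 2.01, 2.02, 2.57 and 1.96 times the reads of Nr3c2. Knockouts 2, 3 and 5 were below every control, and knockout 4 was above control 3 and below the other controls. The glucocorticoid receptor gene was the more abundant of the pair in each of the 8 libraries.

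Hsd11b1 (ENSMUSG00000016194, chromosome 1, 193221634 to 193264075) encodes the enzyme that regenerates corticosterone from 11-dehydrocorticosterone inside cells. It was at 2.80, 4.08, 4.32 and 2.97 CPM in the controls and at 4.67, 5.16, 3.69 and 5.23 CPM in knockouts, from 39 to 80 counts per library. Knockouts 2, 3 and 5 lay above all controls and knockout 4 lay among them. The means were 3.54 ± 0.768 and 4.69 ± 0.711 CPM, and the log2 fold change of 0.39 ± 0.21 was not called. H6pd, which supplies this enzyme with its reduced cofactor in the endoplasmic reticulum, was chosen after its values were seen. Its controls averaged 0.790 ± 0.425 CPM and its knockouts 0.961 ± 0.223 CPM (0.27 ± 0.41 log2, adjusted p = 0.729 in edgeR).

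Fkbp4 (ENSMUSG00000030357, chromosome 6, 128429735 to 128438677) encodes FKBP52, a co-chaperone that binds HSP90 and favours hormone binding and nuclear transport of the glucocorticoid receptor. Controls had 76.3, 77.8, 68.9 and 60.2 CPM, and knockouts had 51.4, 55.4, 47.8 and 52.1 CPM. All 4 knockouts, knockout 4 included, lay below the lowest control, control 4. Fkbp4 fell from 70.8 ± 8.09 to 51.7 ± 3.12 CPM, a log2 fold change of -0.46 ± 0.11, or 1.37-fold lower. The authors' deposited table has -0.46 ± 0.12. Its call was lost without control 1, 2 or 3 or knockout 2 or 5, with log2 fold changes between -0.41 and -0.47 in those fits. The call was also lost with the column number as a replicate block (-0.42).

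The coactivator genes differed little between the groups. Ncoa1 (ENSMUSG00000020647, chromosome 12, 4247362 to 4477182), which encodes the steroid receptor coactivator SRC-1, was at 178, 158, 189.7 and 169.7 CPM in controls and 195, 207, 183 and 224 CPM in knockouts. Knockout 4 was again the one knockout inside the control range, and the log2 fold change of 0.22 ± 0.10 was not called. Ncoa2 (ENSMUSG00000005886, chromosome 1, 13139105 to 13374083), which encodes the related coactivator also known as GRIP1, was at 84.8, 93.2, 119 and 111 CPM in the controls and at 105, 104, 111 and 111 CPM in knockouts (0.08 ± 0.12, not called). The knockouts lay within the control range. Controls 1 and 2 were the lowest libraries for Ncoa2, as they were for Nr3c2. Per exon length Ncoa1 had 2.80 to 3.83 times the reads of Ncoa2 in controls and 3.00 to 3.66 times in knockouts.

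The enzymes that make allopregnanolone differed from each other. Srd5a1 (ENSMUSG00000021594, chromosome 13, 69573449 to 69611442) encodes the 5-alpha-reductase of the first step. It was at 3.81, 6.03, 3.23 and 3.17 CPM in the controls, where control 2 stood above all other libraries, and at 3.73, 2.89, 4.39 and 3.05 CPM in knockouts. The groups overlapped, and the log2 fold change of -0.20 ± 0.25 was not called. Of its exon length 16.4% overlaps Gm17108, a gene on the same strand with 1 to 7 counts per library. How shared reads were treated is not given in the sources used here.

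Akr1c14 (ENSMUSG00000033715, chromosome 13, 4049011 to 4090688) encodes the 3-alpha-hydroxysteroid dehydrogenase of the second step, which reduces dihydroprogesterone to allopregnanolone. Controls 1 to 4 had 45, 53, 45 and 22 counts, or 3.24, 3.33, 2.46 and 1.48 CPM, and knockouts 2 to 5 had 13, 3, 10 and 2 counts, or 0.758, 0.228, 0.585 and 0.136 CPM. Each knockout lay below the lowest control, and knockouts 3 and 5 were the lowest. Akr1c14 fell from 2.63 ± 0.855 to 0.427 ± 0.294 CPM, a log2 fold change of -2.55 ± 0.45, or 5.87-fold lower, and in the authors' deposited table it was -2.58 ± 0.48. Leaving out single libraries gave -2.27 to -2.97, and the call was lost without control 2 (-2.42). It was also lost with the column number as a replicate block (-2.17). Control 4, the control with the most choroid plexus signal, had the lowest Akr1c14 level of the controls, and without it the log2 fold change was -2.75. Whether choroid plexus content plays a part in the Akr1c14 values was not tested.

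Within a library, Srd5a1 had 1.31 to 2.38 times the reads of Akr1c14 per exon length in controls. In knockouts 2 to 5 it had 5.48, 14.1, 8.35 and 25.1 times the reads. The knockout ratios lay above every control ratio, and those of knockouts 3 and 5 rest on 3 and 2 counts of Akr1c14. Akr1c14 belongs to a cluster of related genes on chromosome 13. Of its 50-base stretches 5.80% also occur in transcripts of another gene, all of them in the pseudogene Gm18857, which overlaps 7.22% of its exon length, and none occurs in another Akr1c gene. Its relative Akr1c18, a 20-alpha-hydroxysteroid dehydrogenase that inactivates progesterone, was chosen after its values were seen and had 2 to 29 counts per library (0.63 ± 0.59 log2, adjusted p = 0.537 in edgeR).

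**Figure D3:**
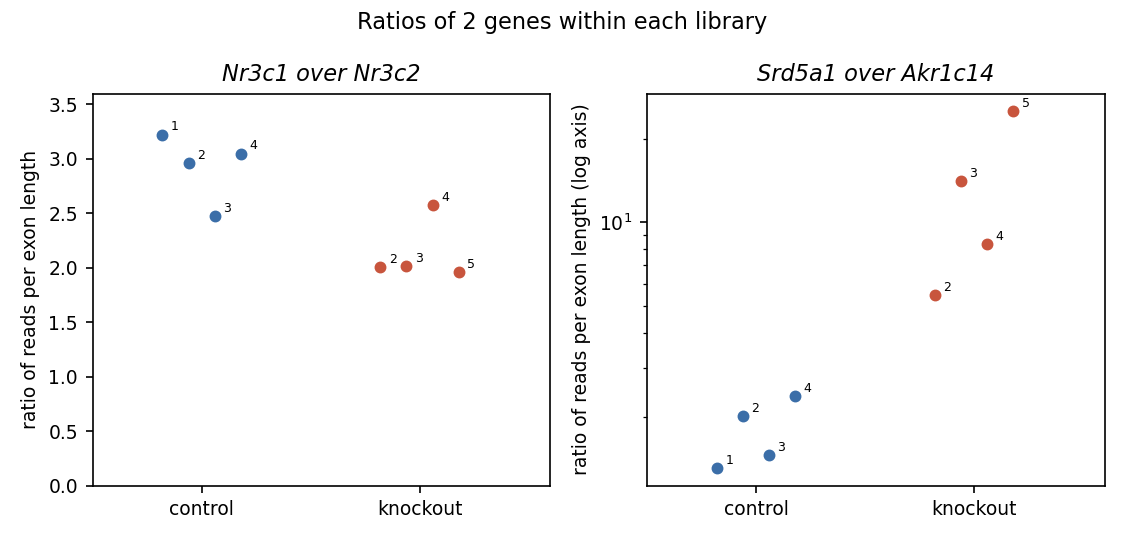
Ratio of reads per exon length of Nr3c1 to Nr3c2 (left, linear axis) and of Srd5a1 to Akr1c14 (right, log axis) within each library, numbered as in the deposited table. For the receptors, knockouts 2, 3 and 5 sit near 2 and knockout 4 at 2.57, while controls run from 2.47 to 3.22. For the enzymes all knockouts, from 5.48 to 25.1, sit above the controls.

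Crhr1 (ENSMUSG00000018634, chromosome 11, 104132855 to 104175523) encodes the main receptor of corticotropin-releasing hormone in the brain. It was at 4.32, 5.52, 6.02 and 3.91 CPM in the controls and at 3.56, 2.66, 3.45 and 1.90 CPM in knockouts. No knockout reached the lowest control, control 4, and knockout 5 was the lowest library. The means were 4.94 ± 0.991 and 2.89 ± 0.774 CPM, 1.70-fold lower in knockouts, and the log2 fold change of -0.77 ± 0.24 did not pass in edgeR. It passed in 3 of 15 alternatives, which were DESeq2 on the same counts and edgeR without knockout 4 (-0.86) or without a filter (-0.78). The authors' deposited table, also from DESeq2, has it passing as well (-0.77 ± 0.27). The hormone gene Crh and the binding protein gene Crhbp, were both chosen after their values were seen. Control levels ran from 3.96 to 6.15 CPM for Crh and from 4.24 to 7.66 CPM for Crhbp. In knockouts Crh was at 3.46 to 3.87 CPM, below every control (-0.29 ± 0.20 log2, adjusted p = 0.407 in edgeR), and Crhbp at 4.33 to 5.62 CPM (-0.23 ± 0.21, adjusted p = 0.545).

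The genes whose levels followed each gene most closely were found by the Pearson correlation of log2 CPM over the 8 libraries, which includes the difference between the groups. For Akr1c14 they were L1cam (r = 0.991), Rexo2 (0.991) and Car8 (0.989), and all 3 were called lower in knockouts. For Fkbp4 they were Ube2e3 (0.983), Specc1 (0.981) and Kcnip3 (0.977), of which Ube2e3 and Kcnip3 were called lower. For Crhr1 they were Ostc (0.971), Myo16 (0.969) and Adam17 (0.968), with Ostc and Adam17 called lower. The closest to Nr3c1 were Rfx3 (0.989), Acy1 (0.989) and Yy1 (0.986). Nr3c2 was closest to Eif4e (0.977), Fzd3 (0.971) and Nrxn3 (0.965), Hsd11b1 to Tbc1d23 (0.976), Cst3 (0.964) and Elmo1 (0.961), and Ncoa1 to Tns1 (0.986), Zkscan17 (0.985) and Zc3hav1 (0.973). Ncoa2 was closest to Mmgt1 (0.957), Gls2 (0.951) and Slc25a10 (0.948), and Srd5a1 to Ccm2 (0.930), Lysmd4 (0.912) and Cln3 (0.908). These correlations are a description, since each gene was picked from all tested genes for its height.

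The wider pathway was described by 6 lists with 143 genes in all, of which 122 were analysed here and 99 passed the filter. Of these 99, 5 rose and 3 fell at an adjusted p of 0.05 over all genes in edgeR's quasi-likelihood test, with a median log2 fold change of 0.0068. That is 8.08% of the list genes tested, near the 6.43% of all genes tested. Among chaperones and co-chaperones of the receptors other than Fkbp4, which was called lower, none of 16 passed (median -0.06). DESeq2 called 1 of the 16 lower, against 5.51% of all genes. At an unadjusted p under 0.05 in edgeR 1 of the 16 was higher and 1 lower, against 13.0% and 12.8% of all genes. The heat shock protein genes Hsp90ab1 (-0.29 ± 0.26, adjusted p = 0.521 in edgeR), Hsp90aa1 (0.02 ± 0.48, adjusted p = 0.987) and Hspa8 (0.08 ± 0.14, adjusted p = 0.768) had the most reads, without regard to length. Hsp90aa1 ranged from 133 CPM in knockout 4 to 604 CPM in knockout 3, against 217 to 358 CPM in controls.

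Among 27 other coregulators 2 rose and 2 fell, against 3.44% and 2.99% of all genes tested, with a median of -0.08. At an unadjusted p under 0.05 in edgeR 2 of the 27 were higher and 3 lower, against 13.0% and 12.8% of all genes. DESeq2 called 2 higher and 2 lower, against 6.22% and 5.51%. Nrip1, a corepressor of nuclear receptors, rose from 64.5 ± 7.21 to 92.3 ± 9.99 CPM (0.51 ± 0.12, adjusted p = 0.0236 in edgeR), and the acetyltransferase gene Kat2b rose from 20.6 ± 1.99 to 28.0 ± 1.85 CPM (0.44 ± 0.12, adjusted p = 0.0465). Smarca4, the ATPase of a chromatin remodelling complex, fell from 183 ± 34.4 to 127 ± 14.5 CPM (-0.53 ± 0.13, adjusted p = 0.0369 in edgeR). Ncoa7 fell from 281 ± 29.2 to 209.5 ± 7.89 CPM (-0.42 ± 0.10, adjusted p = 0.0251 in edgeR). In each of these 4 genes, named because they passed, the groups did not overlap. Over all genes tested 8.58% had all knockouts above all controls and 7.65% had them below. Ncor1 (-0.21 ± 0.14), Smarca2 (-0.22 ± 0.13) and Nsd1 (-0.17 ± 0.11), which had the most reads of the others without regard to length, did not pass.

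Of 16 other steroid and membrane progestin receptors, Esrrg rose and none fell, with a median of 0.07. At an unadjusted p under 0.05 in edgeR 3 of the 16 were higher and 3 lower (13.0% and 12.8% of all genes), and DESeq2 called 1 higher and 0 lower (6.22% and 5.51% of all genes). Esrrg, an orphan receptor related to the estrogen receptors, went from 40.6 ± 2.25 to 54.6 ± 4.95 CPM (0.43 ± 0.11, adjusted p = 0.0332 in edgeR). The progesterone-binding membrane protein genes Pgrmc1 (0.32 ± 0.12) and Pgrmc2 (-0.11 ± 0.12) and the membrane progestin receptor Paqr8 (0.34 ± 0.15) did not pass. Of 6 genes of glucocorticoid inactivation and transport none passed (median 0.20), with 1 higher in DESeq2 (6.22% of all genes). At an unadjusted p under 0.05 in edgeR 1 of the 6 was higher and 1 lower (13.0% and 12.8% of all genes). The cholesterol exporter gene Abca1 was at 35.3 to 53.8 CPM in controls and 57.0 to 65.7 CPM in knockouts (0.43 ± 0.13, adjusted p = 0.0604 in edgeR). The efflux pump gene Abcb1a (0.13 ± 0.15, adjusted p = 0.625) and the organic anion transporter gene Slco1a4 (-0.15 ± 0.25, adjusted p = 0.7497) overlapped between the groups.

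Among 26 genes of neurosteroid synthesis and metabolism other than Srd5a1 and Akr1c14, 2 rose and none fell, with a median of 0.16. Akr1c14, described above, was called lower. At an unadjusted p under 0.05 in edgeR 4 of the 26 were higher and 1 lower, against 13.0% and 12.8% of all genes, and DESeq2 called 3 higher and 0 lower, against 6.22% and 5.51%. Sult1a1, a phenol sulfotransferase gene, was at 7.41, 3.52, 5.69 and 4.12 CPM in the controls and at 18.3, 21.4, 11.9 and 26.5 CPM in knockouts. All knockouts lay above all controls and knockout 4 was the lowest of them. Sult1a1 rose by 1.91 ± 0.27 on the log2 scale (adjusted p = 0.0059 in edgeR). Hsd17b11, a hydroxysteroid dehydrogenase gene whose product sits on lipid droplets, rose from 16.2 ± 1.89 to 25.0 ± 4.38 CPM (0.63 ± 0.15, adjusted p = 0.0302 in edgeR). Vdac1 (0.17 ± 0.09), Sult4a1 (0.18 ± 0.12) and Akr1a1 (0.23 ± 0.11) had the most reads, without regard to length, of those that did not pass. The genes of the first steps of steroid synthesis, chosen after their values were seen, were near the limit of these libraries. Star, which carries cholesterol into mitochondria, averaged 1.25 ± 0.276 CPM over controls and 1.37 ± 0.299 CPM over knockouts (adjusted p = 0.854 in edgeR), and Cyp11a1, which cuts its side chain, at 0.599 ± 0.126 and 0.776 ± 0.311 CPM (adjusted p = 0.583).

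Of 8 tested genes around corticotropin-releasing hormone, Gnas fell and none rose, with a median of -0.26. At an unadjusted p under 0.05 in edgeR 1 of the 8 was higher and 2 were lower (13.0% and 12.8% of all genes), and DESeq2 called 0 higher and 1 lower (6.22% and 5.51%). Gnas encodes the G protein subunit through which Crhr1 and many other receptors raise cyclic AMP. It was at 2347, 1898, 1559 and 1262 CPM in controls and 1137, 1172, 1002 and 1229 CPM in knockouts (-0.64 ± 0.16, adjusted p = 0.0392 in edgeR). The lowest control, control 4, stood close to the highest knockout, knockout 5. Several transcripts of this locus overlap, and reads cannot be split between them here. Adcyap1 (-0.54 ± 0.21), its receptor gene Adcyap1r1 (0.34 ± 0.14) and the oxytocin receptor gene Oxtr (-0.10 ± 0.15) did not pass. Of the 8 list genes that passed, only Sult1a1 did so in each of the 15 alternatives, with adjusted p values from 2.4e-09 to 0.034. Each of the other 7 lost its call without control 1, control 2, knockout 2 or knockout 5, and with the column number as a replicate block. All of these 7 but Nrip1 also lost it without control 3, Kat2b and Gnas also without knockout 3, Kat2b without a filter, and Gnas in limma voom.

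**Figure D4:**
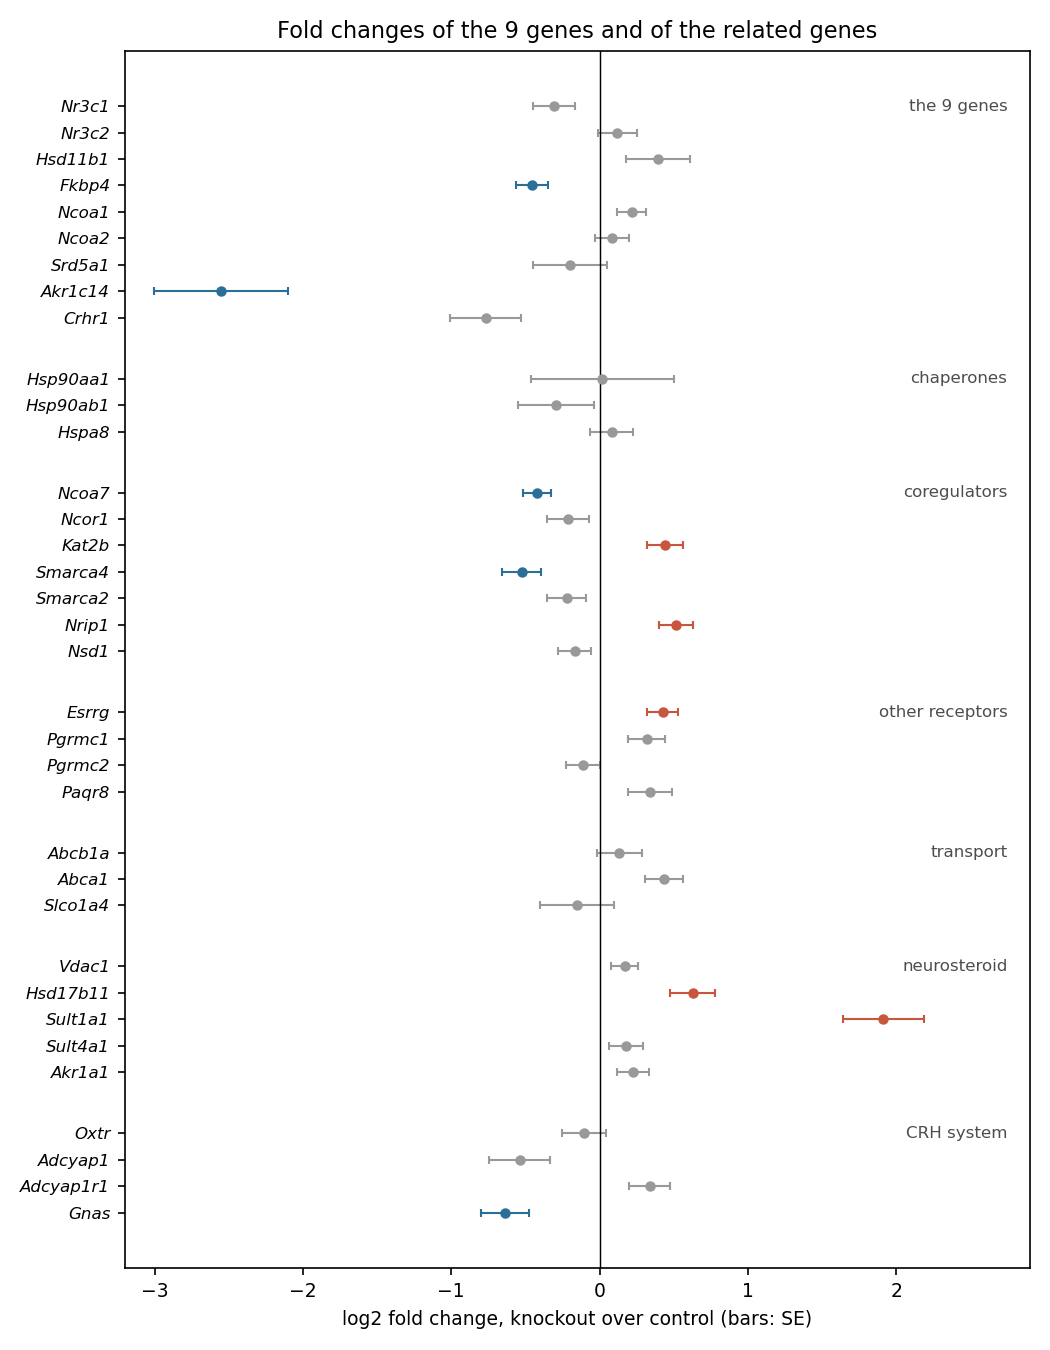
Log2 fold change of knockout over control with its SE from edgeR for the 9 genes and for the named genes of the 6 lists, with genes called lower in blue, called higher in red and not called in grey. Akr1c14 at -2.55 and Sult1a1 at 1.91 lie far outside the others, which lie between -0.77 and 0.63.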

How the data were processed

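RNA was measured in 4 control and 4 knockout cortex libraries. The submitters' processing notes name FastQC, HISAT, HISAT2, featureCounts and DESeq2, all without versions, and the build GRCm38. The strand setting is not given in the sources used here, and the labels name a kit for ChIP sequencing. Counts are the authors' deposited whole numbers per gene, without normalization. The deposited mean signal is the authors' DESeq2 mean of scaled counts, the deposited log2 fold change and error are theirs, the deposited score is their Wald statistic, and the deposited p-values are unadjusted and adjusted. The table's knockout numbers do not match the sample titles, so columns were assigned to groups only. Nothing says that libraries are separate mice, so tests measure the spread between libraries, which may be technical.

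Of 29012 lines 280 repeats were removed, leaving 28732 genes, of which 28682 matched GENCODE M21 for positions and exon lengths. Depth was 13483354 to 17728963 counts, so that 1 count was worth 0.0547 to 0.0759 CPM. Genes were kept with filterByExpr (15564), given TMM factors, and compared by the robust quasi-likelihood test of edgeR, with Benjamini-Hochberg adjustment over all genes at 0.05. The standard error is the log2 fold change divided by the root of F. Sharing of sequence was searched with 50-base stretches of GENCODE transcripts. The software was edgeR 4.0.16, DESeq2 1.42.0 and limma 3.58.1 under R 4.3.3, with matplotlib 3.10.9 for plots under Python 3.11.15. The procedure was tested on simulated data.

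The 9 members and the lists were chosen with earlier results of these data known. Named were all members, per list up to 6 genes that passed and the 3 with the highest CPM, not corrected for length, that did not, and for each member the 3 named genes of at least 1 CPM with the highest correlation. Genes named outside this rule are marked as such, besides Map3k7, Arc and the cell type markers. Alternatives were other scalings, filters and tools, an adjusted p of 0.1, a block on the column number and leaving out each library.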

Additional observations from a re-analysis of the deposited data

Results flagged for a closer look

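In 70 groups of 4 libraries (35 named genes in controls and in knockouts) 2 had a library far from the other 3, while chance marks about 1 in 20 groups. Nrip1 was at 77.4 CPM in knockout 4 and at 95.7 to 99.1 CPM in the other knockouts. Sult4a1, a sulfotransferase gene of neurons, was at 159 CPM in knockout 5 and at 115 to 120.0 CPM in the other knockouts. None of the 9 member genes had such a library.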

How the results depend on the processing

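Over all genes 535 were higher and 466 lower. These counts became 821 and 745 without a filter, 967 and 857 in DESeq2, 1108 and 1075 at an adjusted p of 0.1, and 15 and 2 with the column number as a replicate block. Leaving out 1 library gave 93 to 1012 higher and 35 to 1043 lower, with the fewest without control 2. Of the 9 genes, 2 were called lower, 0 with the replicate block and 0 to 4 with 1 library left out. Of the list genes 5 were higher and 3 lower. They were 8 and 6 at an adjusted p of 0.1, 1 and 0 with the replicate block, and 1 to 7 and 0 to 7 with 1 library left out. Fewer samples enter the fits without a library, and the cause of the other changes was not tested.

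The column numbers 2, 3 and 4 occur in both groups, and the deviations of same-numbered libraries correlated at 0.012, -0.211 and 0.223. So few pairs cannot show whether same-numbered libraries share more than a number. The log2 fold changes of 7 members kept their sign in 15 of 15 alternatives. Ncoa2 turned to -0.0043 with the replicate block, and Srd5a1 ran from -0.32 to 0.050 with 1 library left out, positive without control 2, its highest library. Neither was called. Upper-quartile scaling moved the median of all genes by 0.0369 at most among the scalings. Depth limits Akr1c14, Crhr1, Srd5a1 and Hsd11b1, with 2 to 110 counts per library.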
